A study of Mus musculus with 72 samples.

Results

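The hypothalamus regulates feeding and hormone release through small sets of peptide neurons, and 10 genes of that system were followed in bulk RNA-seq of the suprachiasmatic nucleus (SCN), the central clock of the brain. They are the precursors of 9 peptides (Agrp, Npy, Pomc, Cartpt, Hcrt, Pmch, Trh, Crh and Oxt) and Lepr, the leptin receptor. They were chosen by gene symbol, and all 10 were found, each in 1 of the 24883 rows of the deposited tables. The study asked how dietary tryptophan and light together set circadian rhythms. Male C57BL/6 mice, 8 weeks old at the start, were kept alone in cages for 1 week, either with 12 h of light a day (LD) or without light (DD). For the next 2 weeks, on the same schedule, they ate food lacking tryptophan (-Trp) or a control food matched for nitrogen (Ctrl). The 2 diets and 2 schedules give 4 groups, named Ctrl LD, Ctrl DD, -Trp LD and -Trp DD. SCNs of 3 mice per group were taken every 4 h at 6 times, which gave 72 libraries of 18 per group. Times are given as ZT in LD and CT in DD. The labels name no mutant allele or transgene, and the tissue was not sorted by cell type.

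Agrp and Npy are made together by neurons of the arcuate nucleus that promote feeding, and neighbouring arcuate neurons make Pomc, the precursor of the appetite-suppressing melanocortin α-MSH, often together with Cartpt. The Agrp protein blocks the melanocortin receptors that α-MSH activates. Leptin, a hormone of fat tissue, acts on both kinds of neuron through Lepr. Hcrt (orexin) and Pmch (melanin-concentrating hormone) mark separate neurons of the lateral hypothalamus that act on arousal and feeding. Trh, Crh and Oxt are made in the paraventricular nucleus, and Oxt also in the supraoptic nucleus. Trh drives the thyroid axis, Crh drives the adrenal axis, and oxytocin is released from the posterior pituitary. None of these genes is a defining marker of SCN neurons. The arcuate nucleus lies behind the SCN and the paraventricular nucleus above it, so a dissected block can hold parts of both.

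The windows of 250 bases before the start of 4 of these genes are given here because the diet difference in DD was positive for Npy and negative for Pomc and Cartpt, and Pmch stands for the lateral hypothalamic pair. None of these 3 differences passed the test over all 36 DD libraries, and all 3 did without 5 libraries low in Tbx3, a marker of the arcuate nucleus. RefSeq promoters on GRCm38.p6 were found for 8 of the 10 genes, with 9 starts in all, and none was used for Agrp and Crh. The windows are printed 5′ to 3′ on the strand of the gene, ending at the last base before the start. They are chr6:49822460-49822709 (+) for Npy, chr12:3954695-3954944 (+) for Pomc, chr13:99900684-99900933 (-) for Cartpt and chr10:88090822-88091071 (+) for Pmch. Capitals mark any match, on either strand, to a cAMP response element (TGACGTCA), a STAT site (TTCNNNGAA) or the E-box of the clock (CACGTG).
Npy: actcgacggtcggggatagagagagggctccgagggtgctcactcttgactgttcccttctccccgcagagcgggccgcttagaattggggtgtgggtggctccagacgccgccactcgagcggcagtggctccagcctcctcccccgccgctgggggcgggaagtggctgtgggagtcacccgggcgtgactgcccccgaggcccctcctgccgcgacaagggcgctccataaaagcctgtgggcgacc
Pomc: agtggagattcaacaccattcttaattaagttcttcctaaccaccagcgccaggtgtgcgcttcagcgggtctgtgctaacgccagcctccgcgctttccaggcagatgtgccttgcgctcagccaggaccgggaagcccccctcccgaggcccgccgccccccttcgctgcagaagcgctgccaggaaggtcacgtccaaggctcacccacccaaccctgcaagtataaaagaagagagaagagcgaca
Cartpt: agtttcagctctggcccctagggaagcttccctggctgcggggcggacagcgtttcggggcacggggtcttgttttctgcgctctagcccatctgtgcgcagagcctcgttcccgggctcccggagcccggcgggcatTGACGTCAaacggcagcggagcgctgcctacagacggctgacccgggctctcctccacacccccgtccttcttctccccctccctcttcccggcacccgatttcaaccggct
Pmch: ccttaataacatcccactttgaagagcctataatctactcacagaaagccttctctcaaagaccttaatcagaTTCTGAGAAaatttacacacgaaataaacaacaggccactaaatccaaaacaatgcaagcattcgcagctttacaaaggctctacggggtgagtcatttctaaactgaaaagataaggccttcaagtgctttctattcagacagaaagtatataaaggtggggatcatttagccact
Cartpt held 1 cAMP response element, which began at position -112 from the start, and Pmch held 1 STAT site, which began at -177. The cAMP response element was present in 1.55% of the 32851 windows of all genes, the STAT site in 7.02% and the E-box in 6.02%. The other windows of these genes, Npy and Pomc included, held none of the 3 motifs, and no window held the E-box.

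The libraries could not be placed by their column names alone. The study lists the FPKM of each library for its rhythmic genes, and in that list all 36 Ctrl columns equal deposited columns that stand 12 places away and carry another name. The libraries were therefore taken in the order of that list. The 36 -Trp libraries were placed by continuing the same shift. The -Trp part of that list was not analysed here, so no listed value was set against them. In that order the sum of FPKM over all rows was 403066 to 524705 in the 36 LD libraries and 317417 to 353587 in 35 of the 36 DD libraries, the other being 411944. The diet results turn on this order. Values with the columns as named are given beside them, although those names do not match the listed Ctrl values. FPKM carries no read count, so depth and counting error are unknown and precision comes from the spread between mice.

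Some libraries differed from the rest of their group in tissue content. Tbx3, a transcription factor of arcuate neurons, was at 1.51 FPKM or more in 31 of the 36 DD libraries and between 0.229 and 0.391 in the other 5, which are Ctrl DD replicate 1 at CT0 and CT12 and -Trp DD replicate 1 at CT0 and replicates 1 and 3 at CT12. One of these 5, Ctrl DD replicate 1 at CT12, also held 279 FPKM of Slc17a7, a marker of cortex and hippocampus, and 0.0558 FPKM of the SCN marker Six6. In LD, Tbx3 was at most 0.430 FPKM in 33 libraries and between 0.605 and 1.33 in 3 -Trp LD libraries, replicate 2 at ZT12 and replicate 1 at ZT16 and ZT20. The Tbx3 limits of 1 FPKM in DD and 0.5 FPKM in LD were set after the values were seen. In these bulk samples fewer cells of a type and less RNA per cell cannot be told apart.

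Agrp differed most between the diets in DD. Its level was 0.184 FPKM at the lowest, 19.1 at the median and 34.3 at the highest in the 18 Ctrl DD libraries, and 0.442, 61.7 and 122 in the 18 -Trp DD libraries. All the values under 7 FPKM came from the 5 Tbx3-low libraries, and 15 of the 18 -Trp DD libraries were above every Ctrl DD library. Npy, which the Agrp neurons also make, was at 5.44, 98.1 and 142 FPKM in Ctrl DD and at 7.88, 210 and 363 in -Trp DD. Again 14 of the 18 -Trp DD libraries were above the highest Ctrl DD library.

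Pomc, which counters Agrp at the melanocortin receptors, lay the other way. Its level was 2.16, 134 and 215 FPKM (lowest, median and highest) in Ctrl DD and 2.74, 57.8 and 102 in -Trp DD. No -Trp DD library reached the Ctrl DD median. Cartpt, the second transcript of the Pomc neurons, was at 4.06, 126 and 181 FPKM in Ctrl DD and 20.5, 66.0 and 107 in -Trp DD. Here too, all 18 -Trp DD libraries lay below the Ctrl DD median.

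Over all 36 DD libraries the diet difference, -Trp minus Ctrl in log2(FPKM + 0.5), was 1.45 ± 0.54 (SE) for Agrp (limma, Benjamini-Hochberg adjusted p = 0.0658), 0.75 ± 0.43 for Npy (adjusted p = 0.225), -1.11 ± 0.47 for Pomc (adjusted p = 0.103) and -0.48 ± 0.30 for Cartpt (adjusted p = 0.261). None of the 4 passed the threshold of 0.05 in this fit, while Agrp did once replicate number was added as a block. Of all 10 genes only Crh passed without that block, beside 13.4% of the 14484 genes tested. Without the 5 Tbx3-low libraries, which left 16 Ctrl DD and 15 -Trp DD, 6 of the 10 passed, beside 14.3% of all genes. Agrp was then higher by 1.89 ± 0.18 (limma adjusted p = 1.44e-07) and Npy by 1.32 ± 0.15 (adjusted p = 3.56e-06). Pomc fell by 1.17 ± 0.15 (limma adjusted p = 3.67e-05) and Cartpt fell by 0.60 ± 0.12 (adjusted p = 0.00257). In these 31 libraries Agrp ranged from 7.41 to 34.3 FPKM in Ctrl DD and from 39.2 to 122 in -Trp DD, with no overlap. Pomc was below the lowest Ctrl DD library in 13 of 15 -Trp DD libraries. Such ranges were not counted over all genes. The 5 libraries were set apart after the values were seen, by Tbx3, which followed Agrp and Pomc over the 36 DD libraries (Pearson's r of 0.766 and 0.865 on the log2 scale). Their removal left only replicate 2 of -Trp DD at CT12. The fit without them is therefore a description. With the level of Nr5a1, a marker of the ventromedial nucleus, as a covariate over all 36 libraries, the limma adjusted p was 0.000106 for Agrp, 0.00226 for Pomc, 0.0579 for Npy and 0.0843 for Cartpt. This covariate was also added after the values were seen, and Nr5a1 followed Agrp and Pomc over the 36 DD libraries (r = 0.848 and 0.904).

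**Figure D1:**
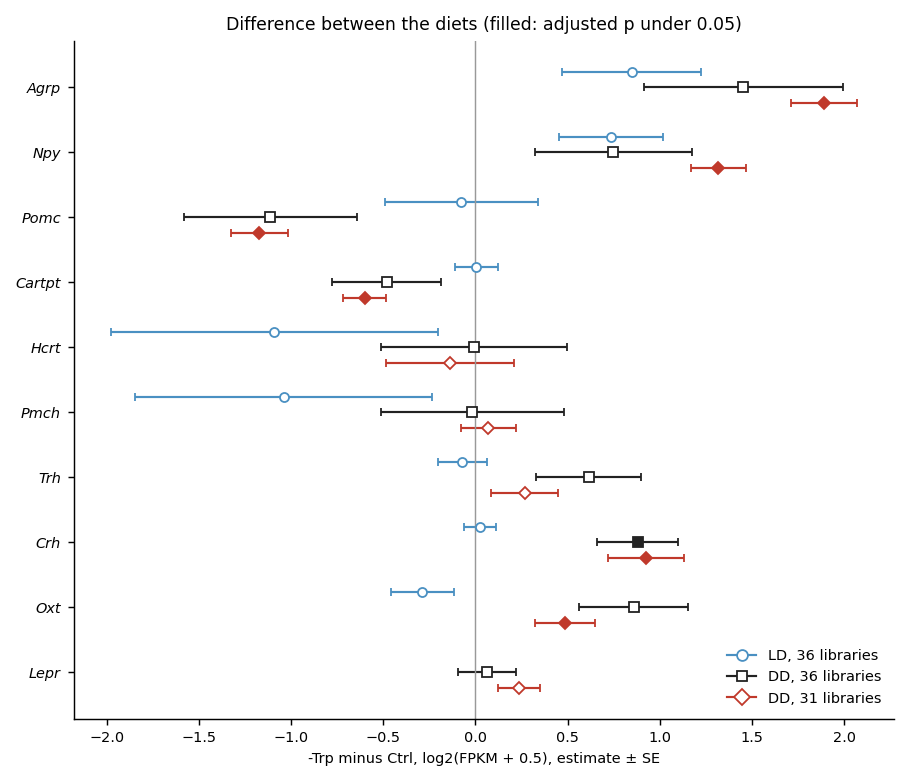
Difference between the diets for each gene (x axis, -Trp minus Ctrl in log2(FPKM + 0.5), with SE) in LD, in all 36 DD libraries and in the 31 DD libraries with Tbx3 of at least 1 FPKM. Filled symbols have an adjusted p under 0.05. Crh is filled in all 36 DD libraries, and Agrp, Npy, Pomc, Cartpt, Crh and Oxt are filled in the 31. Lepr was under the filter in LD and has no LD point.

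Single libraries decided some of these calls. Agrp passed the threshold without Ctrl DD replicate 2 or 3 at CT12 or without -Trp DD replicate 1 at CT0 or CT12, and its difference ranged from 1.25 to 1.72 over the 36 fits that each left out 1 library. Pomc passed without Ctrl DD replicate 1 at CT0 or CT12 (range -1.40 to -0.94), and Cartpt without Ctrl DD replicate 1 at CT12, where it was -0.72. With the columns as named, the diet difference in DD was -3.22 for Agrp and -1.75 for Npy, opposite in sign, and -1.48 for Pomc, and 9 of the 10 genes passed, beside 70.8% of all genes.

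These genes varied together with Tbx3 across libraries, so ratios between genes of the same library were also taken, as a description. In the 31 DD libraries, Agrp over Pomc was between 0.0788 and 0.185 in Ctrl DD (median 0.140) and between 0.749 and 1.45 in -Trp DD (median 1.09). Npy over Pomc was between 0.485 and 0.852 in Ctrl DD and between 2.42 and 4.63 in -Trp DD. The ranges of both ratios were far apart. Agrp over Npy was between 0.160 and 0.257 in Ctrl DD and between 0.272 and 0.337 in -Trp DD, which also did not overlap. Npy was not always accompanied by Agrp, as Ctrl DD replicate 1 at CT12 held 138 FPKM of Npy and 0.401 of Agrp. The median of Agrp over Npy was 0.0276 in Ctrl LD and 0.194 in Ctrl DD. Over all 36 DD libraries 16 of the 18 -Trp DD libraries were above every Ctrl DD library in Agrp over Pomc, 15 in Agrp over Npy and 0 in Npy over Pomc. In the last ratio the highest Ctrl DD value, 63.6, was that of the library rich in Slc17a7. By contrast, Cartpt over Pomc overlapped widely, with 0.589 to 1.38 in Ctrl DD and 0.716 to 1.90 in -Trp DD.

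**Figure D2:**
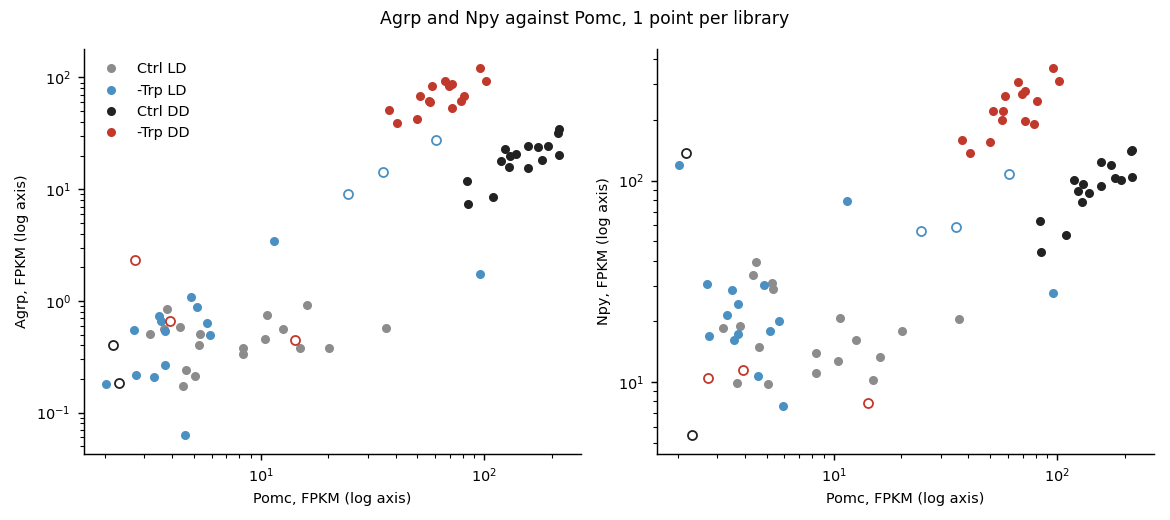
Agrp (left) and Npy (right) against Pomc in FPKM on log axes, 1 point per library, coloured by group. Open circles are the 5 DD libraries with Tbx3 under 1 FPKM and the 3 LD libraries with Tbx3 over 0.5 FPKM. In the other DD libraries all 15 -Trp points lie above every Ctrl point in Agrp, and 14 of the 15 do in Npy. In Pomc 13 of the 15 lie below every Ctrl point, and the 2 diets lie along separate lines.

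One of the 4 deposited tables holds libraries of both DD groups in the order used here, 12 of Ctrl DD (CT8 to CT20) and 6 of -Trp DD (CT0 and CT4). Of those with Tbx3 of at least 1 FPKM, the 11 Ctrl DD libraries had Agrp over Pomc ratios of 0.0995 to 0.185 and the 5 -Trp DD libraries 0.749 to 1.33. The times of these groups differ, so no test was made within the table.

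Markers of the neighbouring nuclei were compared in the same libraries. The summed level of the 11 arcuate markers was 71.3 to 129 FPKM in the 16 Ctrl DD libraries and 90.2 to 134 in the 15 -Trp DD libraries, and 0 of the 11 passed the limma threshold for the diet. Between the schedules this sum did not follow Tbx3, as it was 101 to 159 FPKM in Ctrl LD, where Tbx3 was low. Within DD it was 15.3 to 85.9 in the 5 Tbx3-low libraries (median 82.6), which overlaps the range of the 16 Ctrl DD libraries. The medians of the other libraries were 110 in Ctrl DD and 111 in -Trp DD. Of the 11 markers, Tbx3 itself had a diet difference of -0.25 ± 0.18 (limma adjusted p = 0.352). The 5 markers of the ventromedial and dorsomedial nuclei summed to 28.4 to 51.0 FPKM in Ctrl DD and 29.6 to 58.0 in -Trp DD, also with 0 of 5 called. The 6 markers of the paraventricular and supraoptic nuclei summed to 169 to 522 FPKM in Ctrl DD (median 396) and 288 to 780 in -Trp DD (median 400). Avp is both on this list and among the SCN markers, whose sums had medians of 427 and 442. This sum therefore does not measure those nuclei alone. One of the 6 markers, Caprin2, was higher in -Trp DD, by 0.12 ± 0.03 (limma adjusted p = 0.0246), or by 0.18 ± 0.06 over all 36 DD libraries (adjusted p = 0.0362). The median over the 6 was 0.10, and 0.20 over all 36 DD libraries, beside 0.01 for all genes in both. Over the 36, Sim1 was at 0.31 ± 0.16 and Avp at 0.39 ± 0.25, neither past the threshold. Of the 6 oligodendrocyte markers, 5 were lower in -Trp DD, with a median of -0.41. In the other marker lists 1 astrocyte marker of 5 was higher and 1 lower, 1 microglia marker of 4 was lower, and none passed for the SCN, preoptic area, lateral hypothalamus, thalamus, cortex, striatum, tanycytes, choroid plexus, vessels, leptomeninges or pituitary. Their part in the diet differences was not tested.

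Crh, the hypothalamic driver of the adrenal axis, was the only one of the 10 genes that passed the threshold in the main fit of all 36 DD libraries. It was at 0.162 FPKM at the lowest, 0.749 at the median and 5.06 at the highest in Ctrl DD, and at 0.490, 2.28 and 4.28 in -Trp DD. The groups overlapped, and 15 of 18 -Trp DD libraries were above the Ctrl DD median. The difference was 0.88 ± 0.22 (limma adjusted p = 0.0138), and it passed the threshold in every fit that left out 1 library. In the 31 libraries Crh was at most 1.69 FPKM in Ctrl DD and at most 3.36 in -Trp DD, with a difference of 0.93 ± 0.21 (limma adjusted p = 0.00597). All 5 Tbx3-low libraries had 1.82 FPKM or more of Crh, and over the 36 DD libraries the correlation of Crh with Tbx3 was -0.647 (Pearson's r on the log2 scale, as a description). The summed markers of the preoptic area and bed nucleus had a median of 101 FPKM in those 5 libraries. In the other Ctrl DD and -Trp DD libraries the medians were 44.2 and 47.1. The part of this content in the Crh values was not tested.

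Oxt, the precursor of oxytocin, was at 21.0, 526 and 856 FPKM (lowest, median and highest) in Ctrl DD and at 411, 707 and 1450 in -Trp DD. The lowest value was that of the library rich in Slc17a7, and 5 of 18 -Trp DD libraries were above the highest Ctrl DD library. The difference of 0.86 ± 0.30 lay at the threshold (limma adjusted p = 0.0508). Over the fits that each left out 1 library it ranged from 0.61 to 0.93, with limma adjusted p-values from 0.0231 to 0.0890, and 8 of these fits passed. The 8 were those without Ctrl DD replicate 1 at CT0, replicate 2 at CT4, CT8 or CT16 or replicate 1 at CT12, and those without -Trp DD replicate 2 or 3 at CT0 or replicate 3 at CT4. Without the 5 Tbx3-low libraries it was 0.48 ± 0.16 (limma adjusted p = 0.0451).

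Trh, the driver of the thyroid axis, was at 3.87, 78.2 and 169 FPKM in Ctrl DD and 41.4, 112 and 186 in -Trp DD. The groups overlapped over nearly their whole range, and the difference of 0.61 ± 0.28 did not pass (limma adjusted p = 0.133). It was 0.27 ± 0.18 without the 5 libraries. Trh and Oxt both followed Sim1, a transcription factor of the paraventricular and supraoptic nuclei, over the 36 DD libraries (r = 0.870 and 0.747). Crh did so less, with r = 0.295. Within the 36 LD libraries r was 0.268 for Trh, 0.159 for Oxt and -0.244 for Crh.

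Lepr and the lateral hypothalamic peptides had medians on both diets in DD that were closer than the spread of the libraries. Lepr was at 0.363, 1.77 and 2.61 FPKM in Ctrl DD and 0.422, 1.80 and 2.79 in -Trp DD, a difference of 0.06 ± 0.16 (limma adjusted p = 0.809). Hcrt was at 1.89, 54.1 and 264 FPKM in Ctrl DD and 1.52, 51.8 and 160 in -Trp DD, and Pmch at 7.58, 306 and 631 and at 7.42, 326 and 604. The differences of -0.01 ± 0.50 for Hcrt and -0.02 ± 0.50 for Pmch have wide errors. Without the 5 Tbx3-low libraries they were -0.14 ± 0.35 and 0.07 ± 0.15, neither past the threshold.

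In LD none of the 9 genes tested passed for the diet, beside 1.11% of 14202 genes. At an unadjusted p under 0.05, 2 of the 9 did, Agrp and Npy, beside 1848 of the 14202 genes. Lepr, with a mean under 0.5 FPKM in LD, was below the filter. Agrp was at 0.172, 0.484 and 0.912 FPKM in Ctrl LD and at 0.0628, 0.653 and 27.5 in -Trp LD, and the 3 highest values were those of the 3 Tbx3-high libraries. Its difference was 0.85 ± 0.38 with them (limma adjusted p = 0.322) and 0.22 ± 0.19 without them (adjusted p = 0.688). Npy was at 9.81, 17.0 and 39.4 FPKM in Ctrl LD and at 7.57, 26.0 and 120 in -Trp LD, a difference of 0.74 ± 0.28 (limma adjusted p = 0.228). Its highest value was that of -Trp LD replicate 3 at ZT20, which held 0.181 FPKM of Agrp. The 2 groups overlapped for both genes.

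The other peptides did not pass for the diet in LD either. Pomc was at 3.18, 6.80 and 36.4 FPKM in Ctrl LD and 2.03, 4.70 and 95.3 in -Trp LD, and Cartpt at 37.2, 50.6 and 73.3 and at 36.8, 47.0 and 89.3. Crh had nearly the same range on both diets, 5.40, 8.62 and 11.3 FPKM in Ctrl LD and 5.91, 8.62 and 10.4 in -Trp LD, with a difference of 0.02 ± 0.09. Oxt had the highest level of the 10 genes, 1100, 1744 and 2288 FPKM in Ctrl LD and 246, 1340 and 2610 in -Trp LD, with a difference of -0.29 ± 0.17 (limma adjusted p = 0.508). Trh was at 111, 176 and 259 FPKM in Ctrl LD and 37.9, 187 and 234 in -Trp LD. The lowest Oxt and the lowest Trh value in -Trp LD were from the same library, replicate 3 at ZT20, which also had the lowest Six6 of the LD libraries, 0.0822 FPKM.

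Hcrt and Pmch had the widest ranges of the 10 genes in LD. Hcrt ran from 1.05 to 277 FPKM in Ctrl LD (median 11.2) and from 0.234 to 402 in -Trp LD (median 3.96), and Pmch from 2.27 to 266 (median 31.6) and from 0.917 to 430 (median 5.20). The spread within each diet was wider than the difference between the medians. The differences were -1.09 ± 0.89 for Hcrt (limma adjusted p = 0.665) and -1.04 ± 0.81 for Pmch (adjusted p = 0.645). Without the 3 Tbx3-high libraries, which had 217 FPKM or more of Hcrt, they were -2.13 ± 0.77 and -1.97 ± 0.70, with limma adjusted p-values of 0.190 and 0.183. With the columns as named, 8 of the 10 genes passed for the diet in LD, beside 65.5% of all genes.

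**Figure D3:**
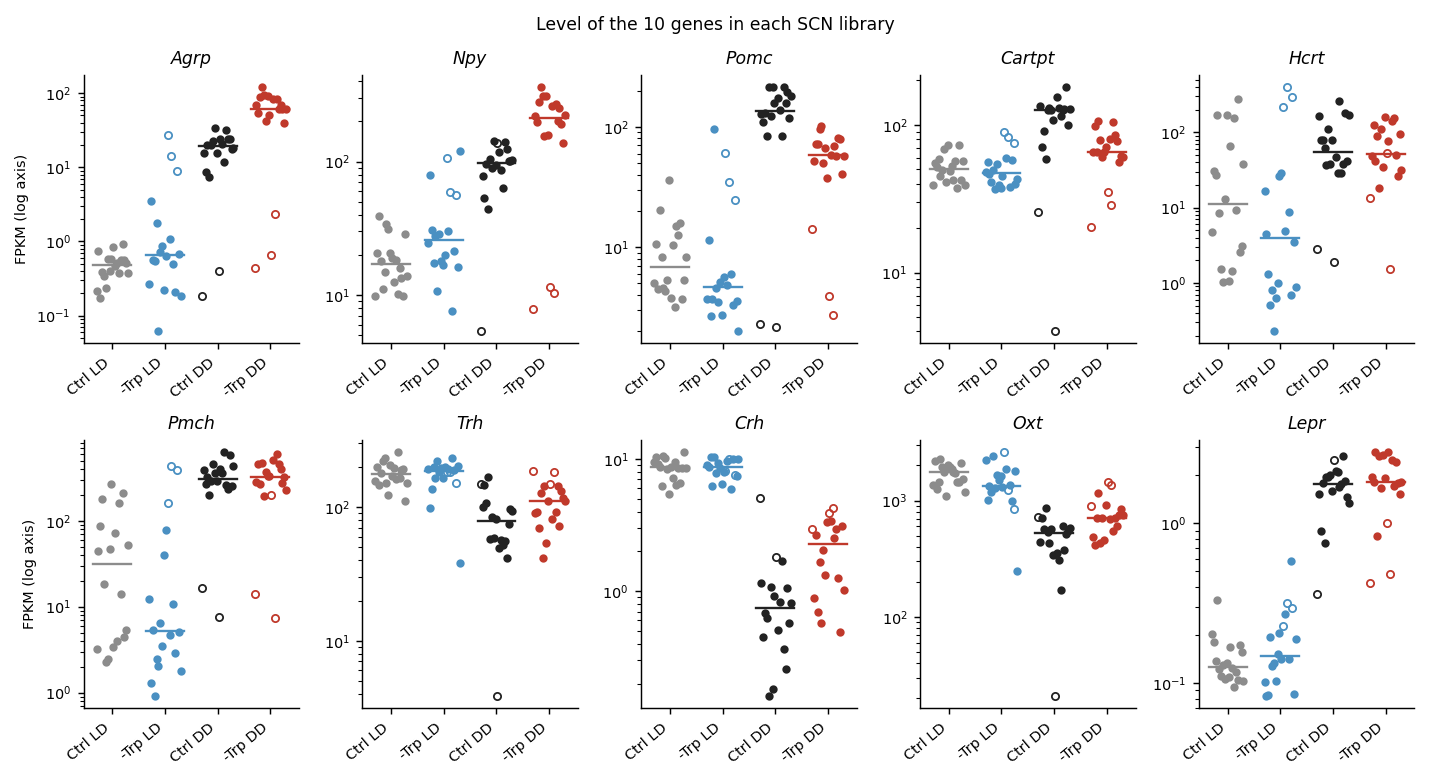
FPKM of each gene (log axis) in every library of the 4 groups, in order of time within a group. Lines are group medians and open circles are the 5 Tbx3-low DD libraries and the 3 Tbx3-high LD libraries. The open circles in DD are far below the others for Agrp, Pomc and Cartpt and above most of them for Crh, and Agrp, Npy, Pomc and Cartpt are the genes whose -Trp DD and Ctrl DD points are most separate.

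Whether the diet effect differed between DD and LD was tested as an interaction over all 72 libraries. The content of the dissected block also differed between the schedules, so the 2 cannot be told apart in this test. The interaction was past the threshold for 2 of the 10 genes, Crh and Oxt, beside 7.69% of 14425 genes. For Crh the diet difference was larger in DD by 0.86 ± 0.24 (limma adjusted p = 0.0205), and for Oxt by 1.14 ± 0.35 (adjusted p = 0.0325). Oxt lost the call without Ctrl DD replicate 1 at CT16 or -Trp DD replicate 3 at CT12, with a highest limma adjusted p of 0.0557. The interaction was 0.61 ± 0.67 for Agrp and -1.03 ± 0.64 for Pomc (limma adjusted p = 0.587 and 0.302), so the diet effects on these genes were not shown to differ between the schedules. Without the 5 Tbx3-low libraries 3 of the 10 passed, beside 6.57% of all genes, as Cartpt was added at -0.61 ± 0.17 (limma adjusted p = 0.0226). With the columns as named all 10 passed, beside 77.6% of all genes, and the interaction of Agrp was -6.02.

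The light schedules differed in all 10 genes on both diets, beside 78.8% (Ctrl) and 79.5% (-Trp) of all genes, so genes of every kind differed. On the Ctrl diet 7 were higher in DD. Lepr rose from a median of 0.127 FPKM in Ctrl LD to 1.77 in Ctrl DD, and all 18 DD libraries were above every LD library. Agrp rose by 3.84 ± 0.35 on the log2 scale (limma adjusted p = 1.34e-11), Pomc by 3.59 ± 0.45 (adjusted p = 1.36e-08) and Pmch by 3.42 ± 0.65 (adjusted p = 1.63e-05). Npy rose by 2.29 ± 0.26, Hcrt by 1.81 ± 0.69, Lepr by 1.74 ± 0.10 and Cartpt by 0.90 ± 0.28. The 0.5 FPKM added before the log makes differences smaller for genes near that level, such as Lepr and Agrp in LD and Crh in DD. As a ratio of the median FPKM in DD to that in LD, Lepr was at 14.0, Agrp at 39.4 and Npy at 5.77. Crh, Oxt and Trh were lower in DD. Crh had medians of 8.62 FPKM in Ctrl LD and 0.749 in Ctrl DD, with no overlap, and fell by 2.68 ± 0.18 (limma adjusted p = 5.97e-15). Oxt fell by 1.93 ± 0.26, also with no overlap, and Trh fell by 1.26 ± 0.25. The share of all genes without overlap between the schedules was not counted. The lack of overlap in Lepr, Crh and Oxt is therefore not read as particular to them.

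On the -Trp diet the same 7 genes were higher and the same 3 lower in DD. Agrp rose by 4.45 ± 0.63, Pmch by 4.44 ± 0.70, Hcrt by 2.89 ± 0.75, Pomc by 2.56 ± 0.47, Npy by 2.30 ± 0.48, Lepr by 1.72 ± 0.14 and Cartpt by 0.42 ± 0.17. The call of Cartpt was lost with FPKM as deposited and in 1 fit for all 72 libraries (limma adjusted p = 0.0765 and 0.0945). Crh fell by 1.83 ± 0.16, Oxt by 0.79 ± 0.19 and Trh by 0.57 ± 0.19. Tissue content moved with the schedule. Tbx3 had a median of 0.182 FPKM in LD and 3.73 in DD, Nr5a1 0.175 and 10.5, and Six6 1.58 and 3.77. Other content was lower in DD. Medians of the summed markers in Ctrl LD and Ctrl DD were 149 and 44.2 FPKM for the preoptic area and bed nucleus and 159 and 97.5 for the striatum. For oligodendrocytes they were 2160 and 1352. The schedule and the content of the dissected block cannot be told apart here, and FPKM as deposited, without scaling, moved the median of all genes between the schedules from -0.02 to -0.11 on the Ctrl diet. With the columns as named, none of the 10 passed on the Ctrl diet (5.65% of all genes did), and on the -Trp diet all 10 did with the opposite sign (78.0% of all genes). Without the 5 Tbx3-low libraries all 10 genes still passed on both diets, in the same directions, beside 81.6% (Ctrl) and 78.9% (-Trp) of all genes.

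**Figure D4:**
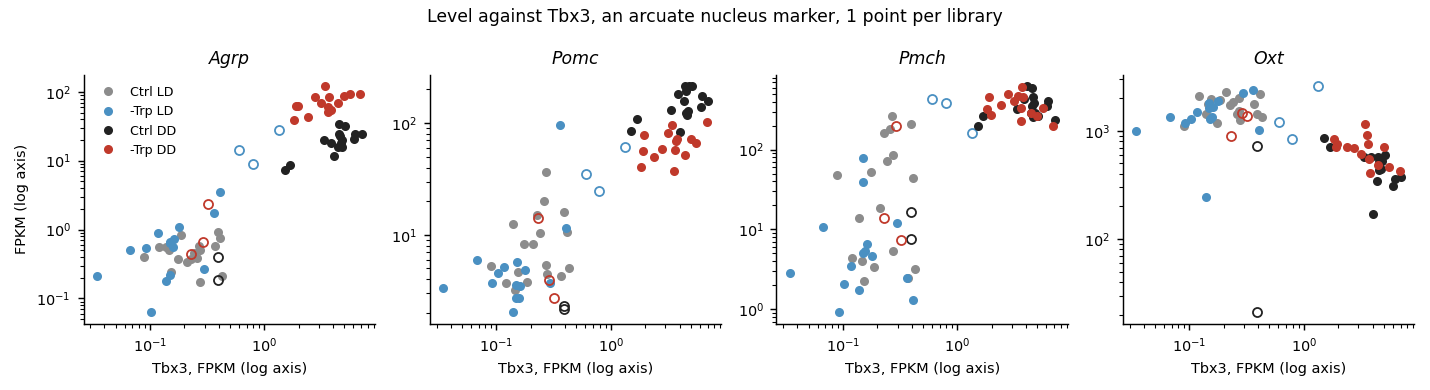
Agrp, Pomc, Pmch and Oxt against Tbx3 in FPKM on log axes, 1 point per library, coloured by group, with open circles for the libraries set apart by Tbx3. Agrp, Pomc and Pmch are high where Tbx3 is high, and the 5 open DD points lie among the LD points. Oxt is lower in DD than in LD.

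Rhythms over 24 h were tested with JTK_CYCLE in the 18 libraries of each group. In Ctrl DD 3 of the 10 genes oscillated at p under 0.05, beside 5.86% of all genes tested. These were Trh with a peak at CT2 (p = 0.000104), Oxt with a peak at CT2 (p = 0.0109) and Lepr with a peak at CT13 (p = 0.00412). Trh had a mean of 132 ± 27.3 FPKM (SD, n = 3) at CT0, 111 ± 56.0 at CT4, 74.7 ± 13.8 at CT8, 36.7 ± 28.6 at CT12, 49.9 ± 7.38 at CT16 and 88.7 ± 11.8 at CT20. Oxt followed the same course, with means of 623 ± 158 FPKM at CT0, 653 ± 177 at CT4, 449 ± 114 at CT8, 228 ± 181 at CT12, 382 ± 215 at CT16 and 547 ± 27.8 at CT20. Both were lowest at CT12, the time that includes the library rich in Slc17a7. Lepr ran from 0.928 ± 0.585 FPKM at CT0 to 2.24 ± 0.219 at CT12.

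All 3 calls held whichever library was left out. Without both Tbx3-low Ctrl DD libraries the JTK_CYCLE p was 0.00138 for Trh, 0.0438 for Lepr and 0.105 for Oxt. After Benjamini-Hochberg adjustment over all genes none passed (0.180 for Trh, 0.408 for Lepr and 0.552 for Oxt). In -Trp DD none of the 10 genes oscillated, beside 1.69% of all genes, and Crh had the lowest p-value (0.115). The means of Trh in -Trp DD lay between 79.4 ± 44.0 FPKM at CT4 and 138 ± 52.3 at CT12. The difference of the rhythm between the diets was tested itself, by a limma model with 24-h cosine and sine terms. None of the 10 passed in DD, beside 0.0345% of all genes. The limma adjusted p was 0.50 for Trh and 0.545 for Oxt, with unadjusted p-values of 0.00407 and 0.00748 and no other gene of the 10 under 0.05, beside 990 of the 14484 genes tested. With the columns as named 4 of the 10 passed in LD and 3 in DD, beside 52.0% and 34.7% of all genes.

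**Figure D5:**
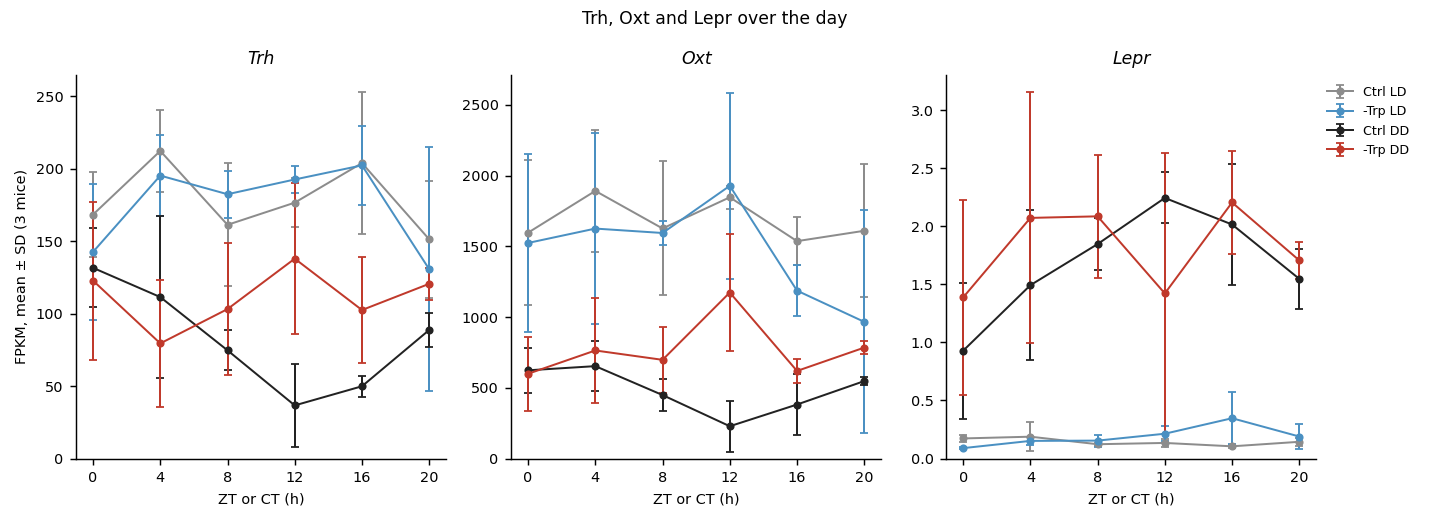
Mean FPKM ± SD of 3 mice over the day for Trh, Oxt and Lepr in the 4 groups. In Ctrl DD, Trh and Oxt are lowest at CT12 and Lepr is highest there. The -Trp DD means of Trh stay between 79.4 and 138 FPKM, and the LD means of Lepr are at most 0.347 FPKM.

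In Ctrl LD none of the 10 genes oscillated, beside 8.59% of all genes, with a lowest p-value of 0.143 for Agrp. In -Trp LD 1 did, Lepr, with a peak at ZT14 (JTK_CYCLE p = 0.0340), beside 8.95%. Its means there were 0.0897 ± 0.00986 FPKM at ZT0 and 0.347 ± 0.223 at ZT16. These levels are low, and the call was lost in 10 of the 18 runs that left out 1 library, and without the 3 Tbx3-high libraries the p was 0.0587. The rhythm of none of the 9 genes tested differed between the diets in LD, beside 0% of all genes (limma), and none of the 9 had an unadjusted p under 0.05.

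The levels of the 10 genes fell into groups across libraries. Within the 31 DD libraries, and as a description over libraries that differ in tissue content, Agrp and Npy had a Pearson correlation of 0.987 on the log2 scale. It was 0.787 for Pomc and Cartpt, 0.715 for Hcrt and Pmch and 0.674 for Trh and Oxt. Agrp and Pomc, made by neighbouring neurons, had -0.518, and Pomc and Crh -0.761. The 31 libraries are of both diets, so these values include the diet differences given above, and no correlation within a diet was computed. Of these, the Ctrl DD library lowest in Agrp (7.41 FPKM) held 84.6 FPKM of Pomc, and the highest (34.3) held 215. In -Trp DD these values were 39.2 with 40.7 and 122 with 95.7. In LD, where both genes were lower, Agrp and Pomc had a correlation of 0.653 over 36 libraries, and Hcrt and Pmch 0.958.

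The genes most like each member over all 72 libraries were ranked by the same correlation among the 13241 genes that averaged 1 FPKM or more. Agrp was most like Rax, a transcription factor of tanycytes (r = 0.935), Col23a1 (0.926) and Nr5a1 (0.925). Npy was most like Agrp (0.903) and Crabp1 (0.880). Pomc was most like Nr5a1 (0.917), the dopamine transporter Slc6a3 (0.915) and Tbx3 (0.902). Cartpt was most like Cited1 (0.883), the melanocortin receptor Mc3r (0.851) and Lamb3 (0.850). Rax, Slc6a3 and Tbx3 are all known from the arcuate region and its border with the third ventricle. Within DD alone the correlation of Pomc with Nr5a1 was 0.904 and that of Cartpt with Mc3r 0.906, while within LD the latter was 0.333.

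Hcrt was most like Parpbp (0.925), Pmch (0.922) and Npvf, a peptide of the dorsomedial nucleus (0.781). Pmch was most like Parpbp (0.984), Hcrt and Nr5a1 (0.898). Pmch, at chr10:88091072-88092375 (GRCm38, + strand), is overlapped by Parpbp on the opposite strand. The library kit keeps strand but the counting is not stated to use it, so reads of Parpbp and Pmch may not have been told apart. The annotated span of Agrp overlaps 7 other genes, Ctcf and Ripor1 among them.

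Trh was most like Mrap2 (0.919), an accessory protein of the melanocortin receptors, Rftn1 (0.914) and the cholecystokinin receptor Cckar (0.907). Oxt was most like Mrap2 (0.914), Trh (0.899) and Lhfpl5 (0.895). Crh was most like Ralyl (0.926), Lhx6 (0.920) and Slc35f4 (0.920), but within the 36 LD libraries these correlations were 0.343, 0.510 and -0.242, and within the 36 DD libraries they were 0.698, 0.644 and 0.774. Lepr was most like the collagens Col4a5 (0.964) and Col5a2 (0.962) and Rai14 (0.952). Within LD the correlation of Lepr with Col4a5 was 0.322 and within DD 0.871.

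Other genes of the same pathways are set beside the 13.4% of all genes that passed for the diet in DD. Of 12 receptors of these peptides tested in DD, 1 was lower, the NPY receptor Npy1r at -0.26 ± 0.08 (limma adjusted p = 0.0256), and none passed without the 5 Tbx3-low libraries. Of 16 genes that process peptides or load them into dense-core vesicles, the secretogranin Scg3 (-0.17 ± 0.04) and the prolyl peptidase Prep (-0.15 ± 0.04) were lower and Scg5, a chaperone of a prohormone convertase, was higher (0.15 ± 0.05), with limma adjusted p-values of 0.0113, 0.0179 and 0.0428. Scg5 lost its call in 19 of the 36 fits that left out 1 library. Of 16 genes of leptin and insulin signalling, 2 were lower. Stat3, which carries the leptin signal to the nucleus, was lower by -0.27 ± 0.08 (limma adjusted p = 0.0264), or -0.25 ± 0.05 without the 5 libraries (adjusted p = 0.00149). Pik3r1, a subunit of the kinase below the insulin receptor, was at -0.15 ± 0.05 (limma adjusted p = 0.0402) and lost its call in 17 of those fits. None of 18 other hypothalamic peptides passed in DD. Without the 5 libraries Scg5 and Pik3r1 no longer passed, while the tachykinin precursor Tac1 was higher (0.35 ± 0.12) and the granin Chga (-0.20 ± 0.07) and the transcription factor Stat5a (-0.21 ± 0.07) were lower, with limma adjusted p-values of 0.0463, 0.0483 and 0.0432. The medians were -0.01 for the receptors, -0.03 for processing, -0.09 for leptin and insulin signalling and 0.15 for the other peptides, beside 0.01 for all genes.

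In LD 1 of these genes passed for the diet, beside 1.11% of all genes. This was Foxo1, a transcription factor restrained by insulin, at 0.23 ± 0.06 (limma adjusted p = 0.0318). It lost the call in 6 of the 36 fits that left out 1 library. The interaction passed for 5 of these genes, beside 7.69% of all genes. The diet effect was smaller, or more negative, in DD than in LD for Foxo1 (-0.32 ± 0.08), Stat3 (-0.28 ± 0.09), the leptin receptor adaptor Sh2b1 (-0.20 ± 0.05) and the granin Chgb (-0.27 ± 0.08). It was larger for Ucn3, a peptide of the CRH family (0.82 ± 0.26). In this order the limma adjusted p-values were 0.00952, 0.0404, 0.00872, 0.0299 and 0.0430. Leaving out 1 library ended the call of Stat3 in 14 of 72 fits and of Ucn3 in 25, and that of Chgb without -Trp DD replicate 1 at CT20 (limma adjusted p = 0.0519).

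Between the schedules most genes of these lists differed on the Ctrl diet, as most genes did. The receptors had 6 higher and 5 lower in DD of 12, with Mc3r at 0.95 ± 0.19, Npy1r at 0.59 ± 0.08 and the melanocortin receptor Mc4r at -0.52 ± 0.10. Processing genes had 3 higher and 6 lower of 16, among them the prohormone convertase Pcsk1, which was higher by 0.61 ± 0.11. Leptin and insulin signalling had 13 higher and 2 lower of 16, with the ghrelin receptor Ghsr at 1.01 ± 0.13, the signal inhibitor Socs3 at 0.82 ± 0.08, the insulin receptor Insr at 0.81 ± 0.04, Stat3 at 0.60 ± 0.07 and the kinase Jak2 at 0.41 ± 0.03. The other peptides had 6 higher and 10 lower of 18, and the 5 with the smallest p-values, Ucn3, Nts, Penk, Tac2 and Gnrh1, were all lower, between -2.66 and -1.18. The medians were 0.24, -0.14, 0.34 and -0.35, beside -0.02 for all genes.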

How the data were processed

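RNA was extracted with TRIzol, libraries were made with a stranded mRNA kit, and the authors trimmed the reads (Trimmomatic), aligned them to the mm10 assembly (TopHat) and estimated FPKM values (Cufflinks). Versions and whether strand was used in counting are not given in the sources used here. The deposited tables hold these FPKM values, with no counts, so depth is unknown. Gene positions are from GENCODE (GRCm38) and promoters from RefSeq (GRCm38.p6).

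Libraries were taken in the order of the study's list of rhythmic genes, in which 36 Ctrl columns were matched by equal values (relative tolerance 0.0001) and 36 -Trp columns by continuing the shift. FPKM was scaled by median-of-ratios factors of the 72 libraries and taken as log2(FPKM + 0.5). Levels were compared in limma 3.58.1 (R 4.3.3), with time of day as a factor, after leaving out genes that averaged under 0.5 FPKM in the libraries of the fit. Differences in rhythm were tested with a limma F-test of diet by 24-h cosine and sine terms. P-values were adjusted by the Benjamini-Hochberg method over all genes tested, with a threshold of 0.05, and all single-gene tests were two-sided. Rhythms were called with JTK_CYCLE, rewritten in Python 3.11.15 with numpy 2.4.6, scipy 1.17.1 and pandas 2.3.3, for a period of 24 h on FPKM as deposited, with Bonferroni adjustment over 6 lags and p under 0.05. Both tests were tested on simulated data. Figures were drawn with matplotlib 3.10.9.

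The 10 genes, the marker lists and the lists of receptors, processing genes, leptin and insulin signalling and other peptides were chosen with earlier results of these data known. Genes outside the 10 were named if they were among the 3 most correlated with a member (averaging 1 FPKM or more; 1 of these genes is not reported here), or among the 5 with the smallest p per list and comparison at an adjusted p under 0.05, or were markers. The 2 Tbx3 limits and the Nr5a1 covariate were added after the data were seen. The labels give 3 mice per group and time. The replicate numbers used here are those of the deposited columns, which are shared between groups, and a Ctrl LD label at ZT0 carries another number.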

Additional observations from a re-analysis of the deposited data

Results flagged for a closer look

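The diet effect differed between DD and LD by the interaction test over 72 libraries for 2 of the 10 genes, beside 7.69% of all genes. The content of the dissected block also differed between the schedules, and its part in these differences was not tested. For Crh the difference was 0.86 on the log2 scale (limma adjusted p = 0.0205), with a diet difference of 0.88 ± 0.22 in DD and 0.02 ± 0.09 in LD. For Oxt it was 1.14 (limma adjusted p = 0.0325), with 0.86 ± 0.30 in DD and -0.29 ± 0.17 in LD. Crh kept its call in all 72 fits that left out 1 library, and Oxt in 70. Crh was higher in the 5 Tbx3-low DD libraries, which were 2 of Ctrl DD and 3 of -Trp DD, and without them the interaction was 0.90 ± 0.22 for Crh and 0.77 ± 0.25 for Oxt (limma adjusted p = 0.00748 and 0.0448).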

How the results depend on the processing

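The order of the columns moved most values. With the columns as named, the number of the 10 genes past the threshold was 8 for the diet in LD (0 in the order used), 9 for the diet in DD (1), 0 for light on the Ctrl diet (10), 10 for the interaction (2), 4 and 3 for the difference in rhythm in LD and DD (0 and 0), 3 for rhythms of the Ctrl diet in LD (0) and 5 in DD (3), and 1 for rhythms of the -Trp diet in DD (0). Over all genes these columns gave 9474 calls for the diet in LD (157), 10177 in DD (1947), 815 for light on the Ctrl diet (11370), 11188 for the interaction (1110), 7518 and 4993 for the difference in rhythm (0 and 5), and 9416 and 6874 rhythmic genes on the Ctrl diet in LD and DD (1769 and 1225) and 617 and 1661 on the -Trp diet (1846 and 354). Signs turned in these comparisons, in log2 units. For the diet in LD they were 2.54 for Pomc, 2.53 for Pmch and -1.71 for Crh. For the diet in DD they were -3.22 for Agrp, -1.75 for Npy, -1.30 for Lepr, 0.22 for Prep and 0.24 for Scg3. For light on the Ctrl diet they were -0.0137 for Cartpt, 0.0344 for Oxt and -0.00965 for Stat3. For light on the -Trp diet they were -4.37 for Agrp, -2.62 for Npy, -3.49 for Pomc, -0.86 for Cartpt, -2.68 for Hcrt, -4.35 for Pmch, 1.32 for Trh, 2.54 for Crh, 1.88 for Oxt and -1.89 for Lepr. For the interaction they were -6.02 for Agrp, -3.53 for Npy, -3.60 for Hcrt, -5.79 for Pmch, 0.38 for Chgb and 0.50 for Sh2b1. None of the other alternatives turned the sign of a called value. The columns as named do not match the listed values of the 36 Ctrl libraries, and some of the columns that do match them carry -Trp names. Where each -Trp library stands among the remaining columns was not tested.

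For the diet in DD, 1 gene of the 10 passed in the order used, 3 with a pseudocount of 1 FPKM, 2 with a mean of at least 1 FPKM, 2 with time as a cosine and sine, 3 with 1 fit for all 72 libraries, 6 without the 5 Tbx3-low libraries and 4 with Nr5a1 as a covariate. Over all genes the calls, in the same order, were 1947, 2002, 2060, 1992, 2237, 2072 and 2324. For rhythms in -Trp LD (1), the count was 0 with Benjamini-Hochberg adjustment, 0 with a mean of at least 0.5 FPKM, 0 without the 3 Tbx3-high libraries and 0 in a limma cosinor fit. In Ctrl DD (3) it was 0 after Benjamini-Hochberg adjustment, which left 28, 127, 0 and 0 rhythmic genes of all genes in the 4 groups. The cause of these changes was not tested. Leaving out each library in turn gave 0 to 0 genes for the diet in LD, 1 to 4 in DD, 10 to 10 for light on both diets, 1 to 3 for the interaction, 0 to 0 for both differences in rhythm, and 0 to 1 and 3 to 3 rhythmic genes on the Ctrl diet in LD and DD and 0 to 2 and 0 to 1 on the -Trp diet. FPKM as deposited gave 31.5% higher among all genes called for the diet in LD (51.0% after scaling) and 41.3% for the interaction (30.3%), and 1 fit for all libraries gave 14 genes differing in rhythm in DD (5).

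The deposited columns share replicate numbers between groups, but the labels give no shared litter, batch or day. Of 36 same-numbered pairs of the diets, 16 had a correlation of their deviations over 0.1 (range -0.359 to 0.449), and 16 correlated best with their own number. By schedule these were 12 and 11 of the 18 pairs in DD and 4 and 5 of the 18 in LD. Since not every pair was over 0.1, the numbers were not taken as pairs, and the DD values are a hint from the data only. With the replicate block 2 of the 10 genes passed for the diet in DD, as Agrp was added (limma adjusted p = 0.0442), beside 1829 of all genes. In -Trp LD 2 of the 10 oscillated at an unadjusted p under 0.05 in a cosinor fit with the replicate block, beside 2103 of all genes.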
